A study of Homo sapiens with 27 samples.

Results

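The family of miR-148 and miR-152 comprises 3 microRNA (miRNA) hairpins, MIR148A, MIR148B and MIR152. Its 5 members analysed here were the mature arms hsa-miR-148a-3p, hsa-miR-148b-3p, hsa-miR-152-3p, hsa-miR-148a-5p and hsa-miR-148b-5p (written without hsa- from here on), taken by name from each of the 9 deposited count tables, out of 2276 miRNAs listed in any table. All 5 were listed in every table and all 5 passed the filter on low counts. A miRNA hairpin is cut by Dicer into a duplex of a 5p and a 3p arm, of which usually a single arm, the guide, is kept in an Argonaute protein, while the other, the passenger, is lost. The guide recognises messenger RNAs mainly through its seed, the bases at positions 2 to 8 from its 5′ end. The 3p arms of this family act as guides, and are known to repress the messenger RNA of the DNA methyltransferase DNMT1, and miR-148a-3p also those of the LDL receptor and of HLA-C. miR-148a is abundant in liver and in many other differentiated tissues.

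Small RNA was sequenced in 27 libraries, 3 per group. They came from the established lines H1, which are human embryonic stem cells (hESCs), and K562, which are chronic myelogenous leukaemia cells. USB1 and PARN are exonucleases that trim the 3′ ends of small RNAs, with PARN preferring adenosine tails, and PAPD5 makes such tails. The 5 hESC groups were USB1 mutant cells carrying a short hairpin against PAPD5 (shPAPD5), USB1 mutant cells with an inducible wild-type USB1 transgene (iUSB1) given doxycycline (+Dox), the same transgenic mutant cells without it (-Dox), USB1 mutant cells (c.531delA, made by genome editing from picked colonies), and wild type (WT). Transgene and hairpin were placed at the AAVS1 locus, and every hESC group other than WT carried the USB1 mutation. The 4 K562 groups were USB1 KO cells with a short hairpin against PARN (shPARN), USB1 KO cells, control cells with shPARN, and control cells. Knockout cells were expanded from single clones, and how many clones stand behind the libraries is not given in the sources used here. The labels name no group with a non-targeting hairpin. The study calls the miRNA sequencing libraries of WT and USB1 mutant hESCs and of USB1 KO and control K562 cells biological replicates, without saying how they were grown, and the labels give no culture for any group. Each p-value reflects the spread among these particular libraries.

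Small RNA libraries do not show messenger RNA, so the levels of USB1, PARN and PAPD5 were not analysed here. The miRNA count per library was between 12258450 and 35734485 for hESCs and between 1530929 and 13183152 for K562, with USB1 KO library 3 the smallest. The counts per 1000000 library counts (CPM), summed over 8 miRNAs typical of pluripotent cells, were 178481 to 397731 in hESCs. In K562 they were 0.653 to 18.8 in 10 libraries, but 782 and 828 in a pair of the control libraries, 1 and 2, so log2 changes described against K562 control cells are also given without both. Markers of blood cells summed to 232 to 558 CPM in hESCs and 6505 to 11271 CPM in K562, and 7 typical of fibroblasts to 199 to 661 CPM in hESCs and 544 to 12774 CPM in K562. Within the hESCs, USB1 mutant library 1 stood apart from its group, with its counts giving chi-squared values per degree of freedom of 2087 and 1937 against mutant libraries 2 and 3, which gave 83.6 between themselves. WT library 1 stood apart too, with 577 and 611 against WT libraries 2 and 3, which gave 22.2 between themselves.

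The mature sequences are shown because the guides are nearly identical outside a short central stretch, which bears on how reads could be assigned. They are given 5′ to 3′ from RefSeq on GRCh38.p14, with positions 2 to 8 in capitals. 4 of the 5 members were matched, together with the opposite arm of miR-152.
miR-148a-3p: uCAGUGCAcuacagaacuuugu
miR-148b-3p: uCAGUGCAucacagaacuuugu
miR-152-3p: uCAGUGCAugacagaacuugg
miR-148b-5p: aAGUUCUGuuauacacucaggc
miR-152-5p: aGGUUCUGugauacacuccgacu
The 3 guides shared the seed CAGUGCA, and no other of the 2370 mature miRNAs in the RefSeq table had it at positions 2 to 8 (3 of 2370, 0.127%). Counted from 1 at the 5′ end, miR-148a-3p and miR-148b-3p differed by C9U and U10C over 22 bases. miR-148a-3p and miR-152-3p differed by C9U, U10G and U20G, and miR-148b-3p and miR-152-3p by C10G and U20G, over 21 bases. The authors' alignment allowed no mismatch in the aligner's seed, but counts of the rare guides could include reads of the far more abundant miR-148a-3p with errors at these positions, so the levels of miR-148b-3p and miR-152-3p carry this uncertainty.

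The hairpins lie on 3 chromosomes. They are printed because the arm ratios below compare both sides of each stem, with the matched mature arms in capitals.
MIR148A: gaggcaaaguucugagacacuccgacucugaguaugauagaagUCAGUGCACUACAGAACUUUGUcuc
MIR148B: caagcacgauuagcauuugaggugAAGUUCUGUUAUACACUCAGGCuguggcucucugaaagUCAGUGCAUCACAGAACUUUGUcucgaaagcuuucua
MIR152: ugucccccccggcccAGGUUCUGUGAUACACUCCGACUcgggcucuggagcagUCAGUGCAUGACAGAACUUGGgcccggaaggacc
MIR148A is at chr7:25949919-25949986 on the minus strand, in an intron of the long non-coding RNA ENSG00000270933. MIR148B is at chr12:54337216-54337314 on the plus strand, in an intron of COPZ1, which encodes a coatomer subunit. MIR152 is at chr17:48037161-48037247 on the minus strand, in an intron of COPZ2, the paralog of COPZ1.

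The first question was how much of each library the family took. miR-148a-3p was the most abundant miRNA of both lines by mean share of all miRNA counts. It took 14.1 to 32.6% of the counts of the 15 hESC libraries, with a mean of 27.5%, and ranked first in 13 of them. In the 12 K562 libraries it took 18.7 to 41.3%, with a mean of 31.9%, and ranked first in 10. The next miRNA was miR-302a-5p in hESCs, of the pluripotency-associated miR-302 cluster, with a mean of 22.2%, and miR-21-5p in K562, a miRNA raised in many tumours, with a mean of 19.6%. At this depth counting error was small: the widest 95% Wilson interval of a miR-148a-3p share ran from 36.9 to 37.0%, in USB1 KO library 3. Such intervals cover counting error only, since reads carried no molecular identifiers. A share says what part of the sequenced miRNA a member made up. In such bulk samples, fewer expressing cells and less RNA per cell cannot be told apart.

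In K562, miR-148a-3p made up 28.1, 28.2 and 31.7% of the counts of libraries 1, 2 and 3 of USB1 KO cells with shPARN. The share was 41.3, 41.1 and 36.9% in USB1 KO cells. It was 18.7, 25.9 and 28.4% in control cells with shPARN and 31.6, 35.5 and 35.4% in control cells. The 3 KO libraries were thus above all the others, and the control shPARN libraries 1 and 2, where miR-21-5p led, were the lowest. miR-21-5p took 25.8, 25.3 and 17.4% in USB1 KO cells with shPARN and 12.9 to 13.3% in USB1 KO cells, against 32.1, 29.5 and 24.1% in control cells with shPARN and 12.6 to 15.5% in control cells. miR-21-5p rose in control cells with shPARN relative to control cells by 1.29 on the log2 scale (SE 0.21, edgeR adjusted p = 0.0132). A miRNA of this abundance moves the share of every other miRNA, so shares were also computed without it. The 3 guides together then took a mean of 38.3% in USB1 KO cells with shPARN, 46.1% in USB1 KO cells, 34.3% in control cells with shPARN and 40.2% in control cells, in the same order of the 4 means as with it.

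In hESCs, the share of miR-148a-3p was 23.1, 28.2 and 31.1% in USB1 mutant cells with shPAPD5. It was 27.8, 27.4 and 28.7% in +Dox cells and 23.7, 32.6 and 27.2% in -Dox cells. It was 14.1, 30.1 and 31.2% in USB1 mutant cells and 24.0, 30.6 and 32.3% in WT cells. Mutant library 1, in which miR-148a-3p had rank 3, was below all others, and the ranges of the 5 groups overlapped. Ordered by mean over the 9 groups, the shares ran from USB1 KO at 39.8 ± 2.46% (SD, n = 3) over K562 control at 34.2 ± 2.25%, USB1 KO shPARN at 29.3 ± 2.03%, WT at 29.0 ± 4.36%, +Dox at 27.9 ± 0.703%, -Dox at 27.8 ± 4.47%, shPAPD5 at 27.5 ± 4.04% and USB1 mutant at 25.1 ± 9.55% to K562 control shPARN at 24.3 ± 5.05%. USB1 KO and K562 control were the only neighbours in this order whose libraries did not overlap.

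**Figure D1:**
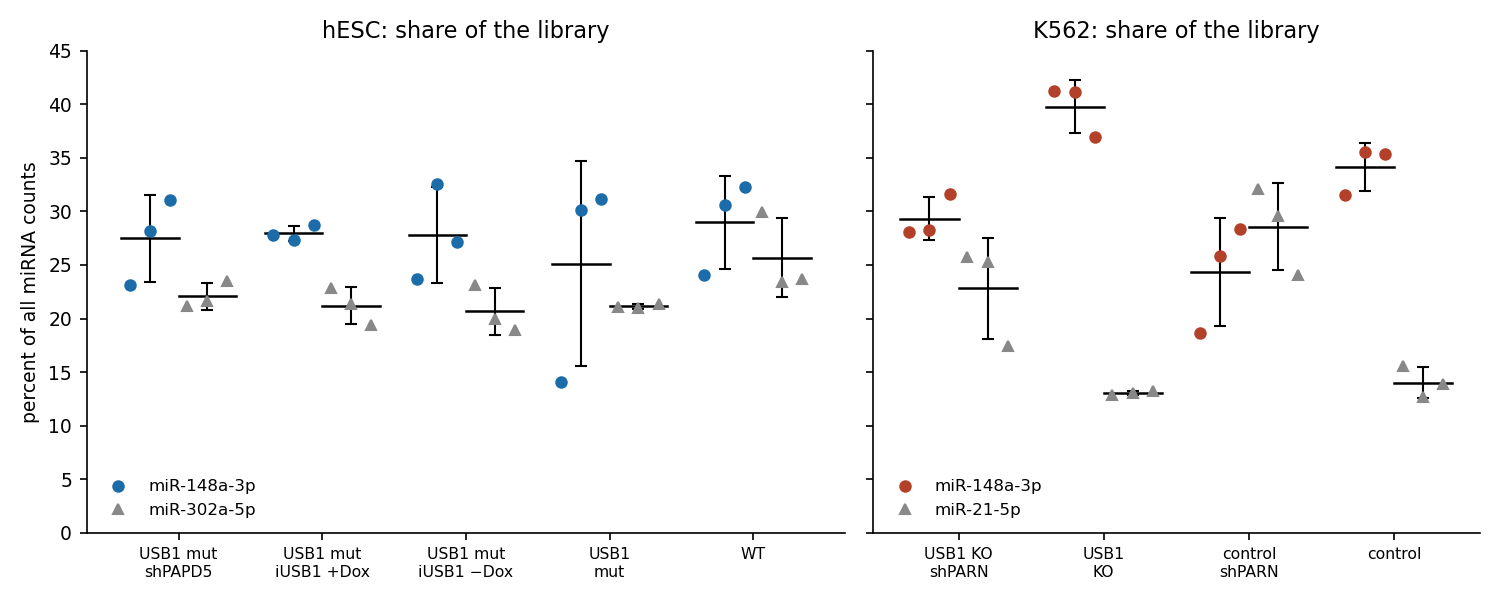
Percent of all miRNA counts taken by miR-148a-3p (circles) and by the most abundant other miRNA of the line (triangles) in each library, with the mean (bar) and SD of 3 libraries per group. miR-148a-3p led in 13 of 15 hESC and 10 of 12 K562 libraries, and lay lowest in USB1 mutant library 1 at 14.1%.

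The other members were far rarer. miR-148b-3p took 0.165 to 0.401% of hESC and 0.232 to 0.406% of K562 libraries and ranked 26 and 29 by mean share. miR-152-3p took 0.00569 to 0.00813% and 0.00474 to 0.0135%, ranking 188 and 211. miR-148a-3p therefore made up nearly all counts with the family's seed, with a median of 84.2 counts per miR-148b-3p count in hESCs and 98.9 in K562, and miR-148b-3p had a median of 46.1 and 38.4 counts per miR-152-3p count. Of the passenger arms, miR-148a-5p took 0.0157 to 0.0235% in hESCs and 0.0256 to 0.0563% in K562, and miR-148b-5p 0.000818 to 0.00157% and 0.00260 to 0.00503%. miR-148a-5p was thus more abundant than the guide miR-152-3p in every library, as counts of reads per arm with no length correction, all arms being about 22 bases long. The least counted member was miR-148b-5p with 67 counts in USB1 KO library 3, a share of 0.00438% (95% Wilson interval 0.00345 to 0.00556%).

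USB1 mutant cells were compared with WT hESCs to see which members depended on USB1 in undifferentiated cells. None of the 5 members passed the test (edgeR, adjusted p of 0.166 to 0.861), where 7.41% of the 998 miRNAs tested did, and DESeq2 also called 0. At an unadjusted p under 0.05 there were 2 members, against 23.7% of all miRNAs. The median log2 change of the 5 members was -0.11, and that of all miRNAs 0.04. For 3 of the 5 members the levels did not overlap between groups, against 25.9% of all miRNAs. Levels are CPM after scaling by the trimmed mean of M-values (TMM). Marker sums moved with these groups: those of pluripotent cells were 230757 to 397731 CPM in USB1 mutant and 178481 to 192781 CPM in WT libraries, and those of blood cells 264 to 352 CPM in USB1 mutant and 411 to 447 CPM in WT libraries. Single pluripotency miRNAs went both ways, with 4 of 8 called higher and 3 lower by edgeR. Of 6 blood miRNAs tested, edgeR called 0 higher and 0 lower. The part of these markers in the members' values was not tested.

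miR-148a-3p was at 135238, 323744 and 360243 CPM in USB1 mutant libraries 1, 2 and 3, against 226450, 311648 and 346125 CPM in WT. Library 1 had the least miR-148a-3p of its group in all 5 hESC groups. It was at 219320 CPM in -Dox, 265731 CPM in +Dox and 192194 CPM in shPAPD5 cells. The low values of mutant and WT library 1 thus followed the library number, and the cause was not tested. With a replicate block, 0 members were called in USB1 mutant against WT cells. Mutant library 1 was the lowest and mutant library 3 the highest of the 6 mutant and WT libraries, so these groups overlapped. The log2 change was -0.11 (SE 0.29, 95% interval -0.73 to 0.51, edgeR adjusted p = 0.861), and it was 0.21 without mutant library 1 (edgeR adjusted p = 0.684) and -0.28 without WT library 1 (edgeR adjusted p = 0.639).

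miR-148b-3p had 1581, 3547 and 3501 CPM in mutant and 2940, 3875 and 4150 CPM in WT libraries, with a log2 change of -0.35 (SE 0.24, edgeR adjusted p = 0.406). The groups overlapped, and mutant library 1 was again far below the rest. Without it the log2 change was -0.06 (edgeR adjusted p = 0.906), and without WT library 1 it was -0.50 (edgeR adjusted p = 0.290). miR-152-3p had 54.5, 71.3 and 66.9 CPM in mutant libraries, all below the 76.3, 82.0 and 86.5 CPM of WT. Its log2 change of -0.35 (SE 0.15, 95% interval -0.66 to -0.03) had an unadjusted edgeR p of 0.0331 but an adjusted p of 0.166, so it did not hold across all miRNAs tested. It was -0.25 without mutant library 1 (edgeR adjusted p = 0.414) and -0.41 without WT library 1 (edgeR adjusted p = 0.157).

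The passenger arms lay the other way in these libraries, also short of the threshold. miR-148b-5p had 15.1, 10.4 and 11.7 CPM in mutant libraries, all above the 7.70, 9.93 and 9.40 CPM in WT, with a log2 change of 0.46 (SE 0.20, edgeR unadjusted p = 0.0397, adjusted p = 0.184), or 0.29 without mutant library 1 (edgeR adjusted p = 0.535). miR-148a-5p had 224, 237 and 234 CPM in mutant and 194, 215 and 189 CPM in WT libraries, which did not overlap, and a log2 change of 0.22 (SE 0.15, edgeR adjusted p = 0.403).

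Induction of the USB1 transgene asked whether levels moved back once USB1 was supplied. No member passed the test between +Dox and -Dox cells (edgeR adjusted p of 0.994 to 0.997, 0 by DESeq2, 0 at an unadjusted p under 0.05), and edgeR called 0% of all 998 miRNAs, with 4.51% at an unadjusted p under 0.05. The log2 changes of the members were 0.01 to 0.37. Libraries did not overlap for 3 members, against 13.6% of all miRNAs. miR-152-3p had 76.4, 74.2 and 74.2 CPM in +Dox libraries, all above the 63.9, 64.4 and 60.0 CPM of -Dox libraries. miR-148b-3p had 3521, 3350 and 3158 CPM in +Dox libraries, all above the 2855, 2805 and 2100 CPM of -Dox libraries. miR-148b-5p was also higher without overlap, at 11.08 to 11.87 CPM in +Dox and 9.48 to 10.96 CPM in -Dox libraries. This rise led away from the 7.70 to 9.93 CPM of WT libraries. The log2 change of miR-148b-5p against WT was 0.17 in -Dox and 0.34 in +Dox cells. miR-148a-3p, at 265731 to 303346 CPM in +Dox and 219320 to 331381 CPM in -Dox cells, overlapped.

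Set against WT, -Dox cells had a log2 change of miR-152-3p of -0.38 (SE 0.15, edgeR unadjusted p = 0.0210, adjusted p = 0.187), with every -Dox library below every WT library. Marker sums separated these groups as well, for pluripotent cells at 216137 to 274791 CPM in -Dox, 217600 to 256361 CPM in +Dox and 178481 to 192781 CPM in WT libraries. For blood cells they were 232 to 346 CPM in -Dox, 266 to 318 CPM in +Dox and 411 to 447 CPM in WT libraries. The part of these markers in the members' values was not tested. Single pluripotency miRNAs did not all follow their sum. Of 8 tested against WT, edgeR called 0 higher and 2 lower in -Dox, and 0 higher and 3 lower in +Dox. The median log2 change of this list was 0.22 in -Dox and 0.31 in +Dox. No member passed in -Dox against WT (0 of 5 by DESeq2 as well, 1 at an unadjusted p under 0.05, where 18% of all miRNAs were below that and 4.31% were called) or in +Dox against WT (0 of 5 by DESeq2, 0 at an unadjusted p under 0.05, where 23.2% of all miRNAs were below that and 8.22% were called). Libraries did not overlap for 2 members in each, against 22.6% of all miRNAs for -Dox and 30.5% for +Dox. For miR-152-3p, +Dox and WT libraries overlapped only narrowly after TMM scaling, with the highest +Dox library at 76.4 and the lowest WT library at 76.3 CPM, and as a percent of the library all 3 +Dox values (0.00703 to 0.00798%) were below all 3 of WT (0.00806 to 0.00810%). +Dox, -Dox and USB1 mutant cells are all set against the same 3 WT libraries, so these comparisons are not independent of each other. The -Dox cells, which carry the uninduced transgene, gave log2 changes of -0.28 to 0.02 against USB1 mutant cells. There, 0 of 5 members were called by edgeR or DESeq2, 0 had an unadjusted p under 0.05 (8.92% of all miRNAs), 0% of all miRNAs were called, and 0 members had libraries that did not overlap (11.1% of all miRNAs).

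Knockdown of PAPD5 in USB1 mutant cells gave no call for a member either, with edgeR adjusted p of 0.300 to 0.976 against USB1 mutant cells and 0.455 to 0.889 against WT, and 0% of all miRNAs called in both comparisons (DESeq2 called 0 members in both). At an unadjusted p under 0.05 there was 1 member against USB1 mutant cells (11.6% of all miRNAs) and 0 against WT (13% of all miRNAs). The largest log2 difference was in miR-148a-5p, at 151.5, 156 and 199.8 CPM in shPAPD5 cells, all below the 224, 237 and 234 CPM of USB1 mutant cells (-0.45, SE 0.15, edgeR unadjusted p = 0.00817, adjusted p = 0.300). It was the only 1 of 5 members that did not overlap, against 15.7% of all miRNAs. Marker sums separated these groups too, for blood cells at 364 to 558 CPM with shPAPD5 and 264 to 352 CPM in USB1 mutant cells, and for fibroblasts at 321 to 529 CPM with shPAPD5 and 243 to 304 CPM in USB1 mutant cells, and their part in the result was not tested. miR-152-3p, at 67.5, 65.1 and 68.6 CPM in shPAPD5 cells, lay among the USB1 mutant libraries. After TMM scaling it was below every WT library (log2 change -0.28, SE 0.15, edgeR adjusted p = 0.455), where 19.3% of all miRNAs did not overlap. As a percent of the library the groups overlapped, with shPAPD5 library 1 at 0.00813% and WT libraries at 0.00806 to 0.00810%.

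**Figure D2:**
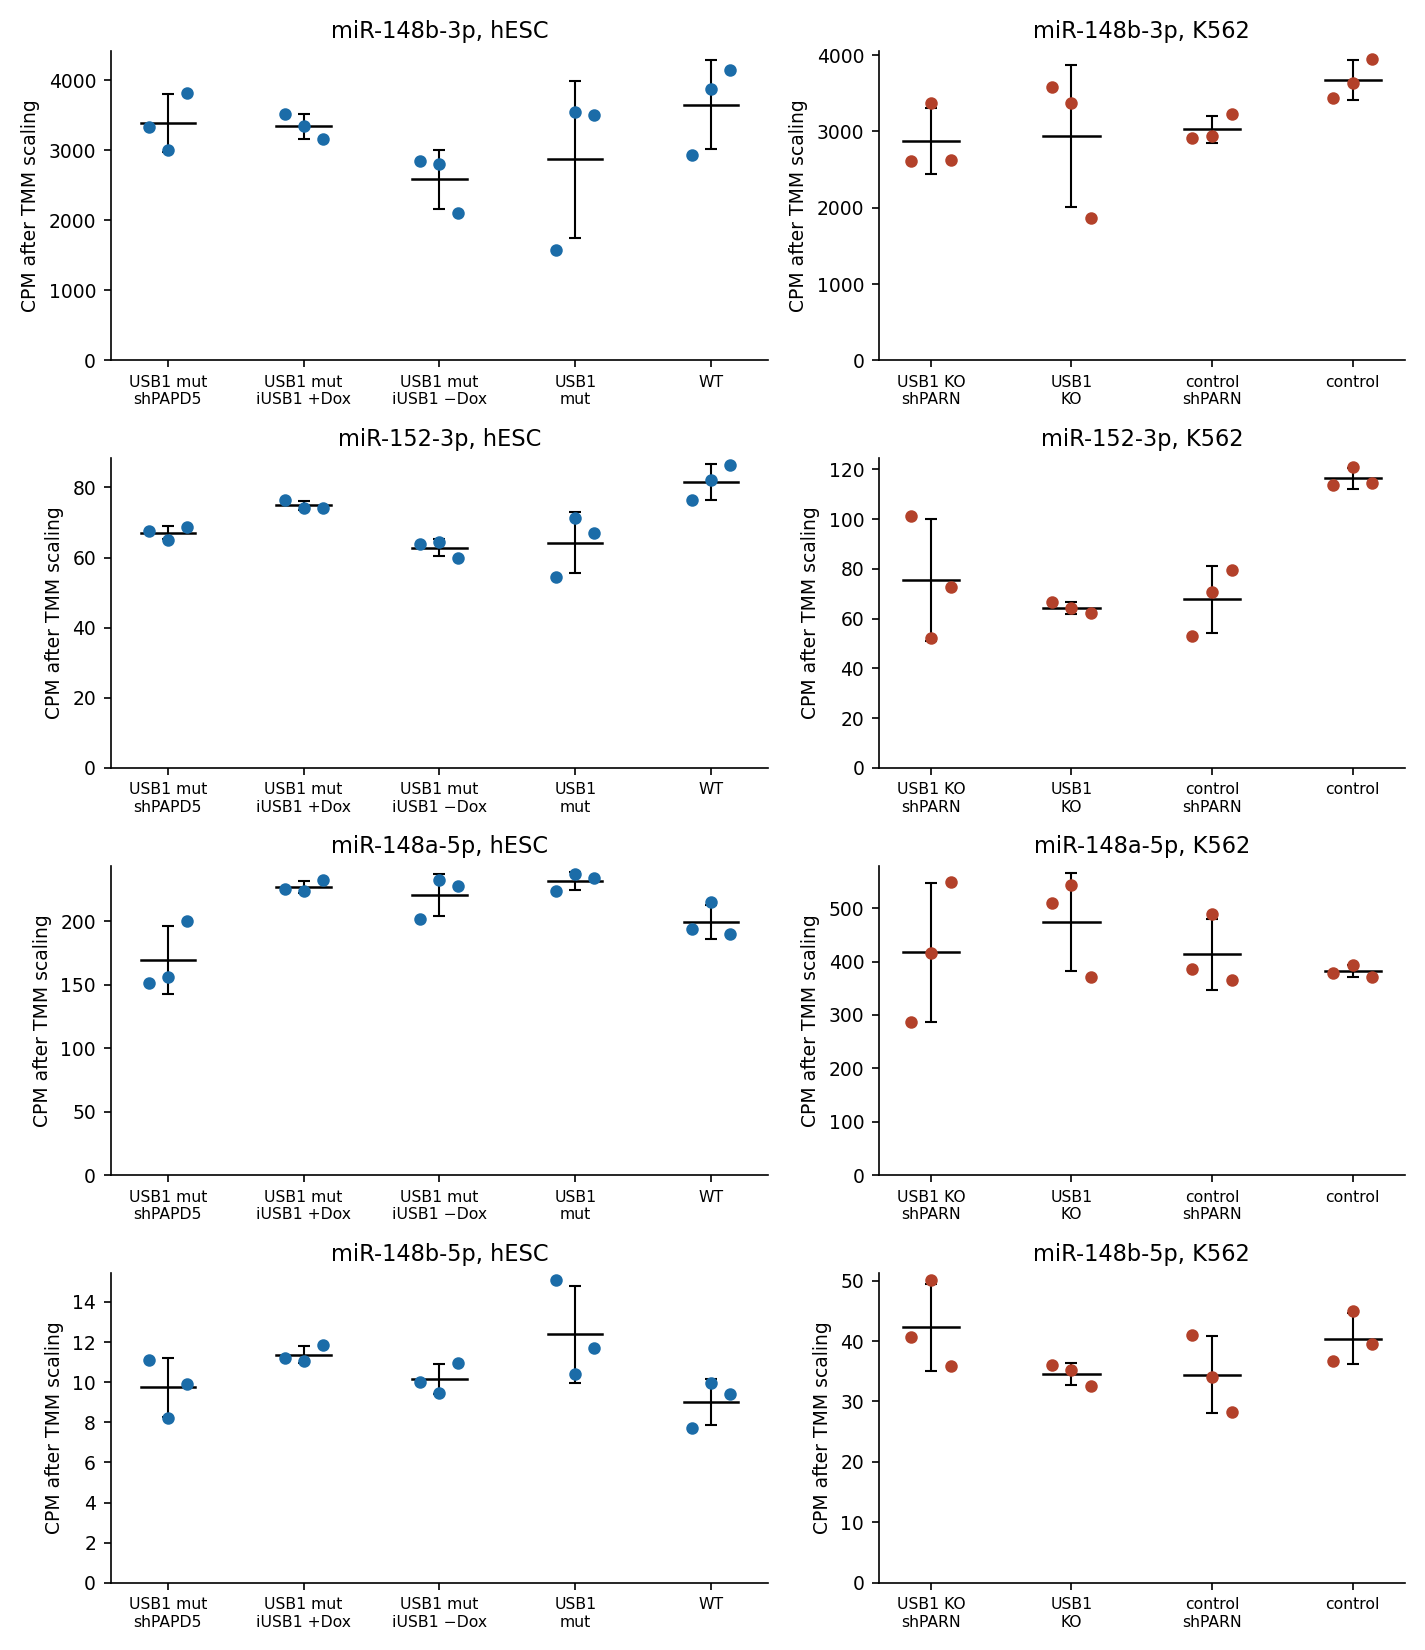
CPM after TMM scaling within each line (y axes from 0) of the 4 rarer members in each library, with the mean and SD of 3 libraries per group. All 9 K562 libraries other than control had less miR-152-3p than the 114 to 121 CPM of control cells.

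In K562, loss of USB1 went with less miR-152-3p. USB1 KO libraries 1, 2 and 3 had 66.8, 64.3 and 62.1 CPM, against 114, 121 and 114 CPM in control libraries. The groups were far apart, at 64.4 ± 2.34 and 116 ± 4.05 CPM (SD, n = 3). Relative to control cells, miR-152-3p fell by 0.85 on the log2 scale (SE 0.23, 95% interval -1.34 to -0.37, edgeR adjusted p = 0.0469), which put it at place 40 of 881 miRNAs by p. It was the only 1 of 5 members called, where 5.11% of all miRNAs were called and 3.18% were called lower. It was also the only member with an unadjusted p under 0.05 (17.6% of all miRNAs). miR-152-3p had 639, 653 and 128 counts in USB1 KO and 1236, 851 and 1199 counts in control libraries.

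The size of this difference was stable, while its place at the threshold was not. Without any 1 of the 6 libraries the log2 change was -0.88 to -0.82, but the edgeR adjusted p was 0.101 to 0.161. DESeq2 kept the call (adjusted p = 0.0404), and library totals in place of TMM did not (adjusted p = 0.0753). Summed pluripotency miRNAs moved with the groups, at 0.653 to 4.75 CPM in KO and 8.24 to 828 CPM in control libraries, with 4 of the 8 not listed in the KO table. Control library 3, with 8.24 CPM of them, had 114 CPM of miR-152-3p, close to control library 1. Without control libraries 1 and 2 the log2 change was -0.85 (edgeR adjusted p = 0.423, with the lone control library assumed to vary like the other groups). Fibroblast markers overlapped, at 1360 to 6145 CPM in KO and 1472 to 1850 CPM in control cells.

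The other guides did not pass in USB1 KO against control cells. miR-148a-3p had 408397, 396902 and 274391 CPM in KO and 287618, 317560 and 356803 CPM in control libraries, with a log2 change of 0.17 (SE 0.19, edgeR adjusted p = 0.674). After TMM scaling the groups overlapped through the shallow KO library 3, although as a percent of the library every KO value was higher. By percent of the library, 29.1% of all miRNAs did not overlap. The log2 change was 0.33 without KO library 3 (edgeR adjusted p = 0.364) and -0.0046 without control libraries 1 and 2 (edgeR adjusted p = 0.999). miR-148b-3p had 3588, 3367 and 1870 CPM in KO and 3437, 3630 and 3953 CPM in control libraries, with a log2 change of -0.32 (SE 0.21, edgeR adjusted p = 0.425). It was -0.08 without KO library 3 (edgeR adjusted p = 0.860) and -0.44 without control libraries 1 and 2 (edgeR adjusted p = 0.752). After TMM scaling, KO libraries 1 and 2 lay within or next to the control range and library 3 far below it. As a percent of the library, all 3 KO values of miR-148b-3p (0.252 to 0.362%) were below all 3 of control (0.377 to 0.406%).

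Of the passenger arms, miR-148a-5p had 509, 543 and 371 CPM in KO and 379, 394 and 372 CPM in control libraries (log2 change 0.31, SE 0.22, edgeR adjusted p = 0.468). miR-148b-5p had 36.1, 35.2 and 32.5 CPM in KO and 36.8, 44.9 and 39.5 CPM in control libraries (log2 change -0.22, SE 0.19, edgeR adjusted p = 0.574). Here the 3 KO values were below all 3 of control, with little room between them. Without control libraries 1 and 2 the log2 change was 0.33 for miR-148a-5p (edgeR adjusted p = 0.840) and -0.21 for miR-148b-5p (edgeR adjusted p = 0.866). In all, 2 of 5 members did not overlap between KO and control cells after TMM scaling, against 29.5% of all miRNAs. As a percent of the library, 2 members were higher in KO cells without overlap, miR-148a-3p and miR-148a-5p. Another 2 were lower, miR-148b-3p and miR-152-3p, and 29.1% of all miRNAs did not overlap.

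PARN knockdown in control cells was also accompanied by lower miR-152-3p, short of the threshold. Control cells with shPARN had 53.0, 70.8 and 79.4 CPM, all below the 114, 121 and 114 CPM of control cells. The log2 change was -0.78 (SE 0.22, edgeR adjusted p = 0.101), in a comparison where 1.48% of all miRNAs were called. Of the 5 members, 0 were called by edgeR or DESeq2, and 1 had an unadjusted p under 0.05 (13.4% of all miRNAs). After TMM scaling 2 did not overlap between groups (22.5% of all miRNAs). Library totals put the median log2 change of all miRNAs in this comparison at -0.29, so overlap by percent of the library is not counted here. With library totals in place of TMM the log2 change of miR-152-3p was -1.04 (edgeR adjusted p = 0.0424), and with no other group in the fit -0.78 (edgeR adjusted p = 0.0416). It was -0.75 without control libraries 1 and 2 (edgeR adjusted p = 0.807). Marker sums moved here too, for blood cells at 7472 to 7879 CPM in control cells with shPARN and 8777 to 11271 CPM in control cells, and for fibroblasts at 660 to 728 CPM in control cells with shPARN and 1472 to 1850 CPM in control cells, and their part in the result was not tested. Library totals shifted the median of all miRNAs by -0.26, and relative to the median the change was -0.76 with totals and -0.75 with TMM.

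USB1 KO cells with shPARN had 101, 52.2 and 72.9 CPM of miR-152-3p, again below every control library, with a log2 change of -0.63 against control cells (SE 0.22, edgeR adjusted p = 0.0834). In this comparison 14.1% of all miRNAs were called and 0 of 5 members, also by DESeq2, with 1 at an unadjusted p under 0.05 (28% of all miRNAs) and 2 that did not overlap (33.9% of all miRNAs). Without USB1 KO shPARN library 1, the highest of the 3, the log2 change was -0.93 (edgeR adjusted p = 0.0165). Over all omissions of 1 of the 6 libraries, the log2 change was -0.93 to -0.42 (edgeR adjusted p of 0.0165 to 0.255). It was -0.62 without control libraries 1 and 2 (edgeR adjusted p = 0.435). Sums of pluripotency miRNAs were 1.43 to 4.01 CPM in USB1 KO cells with shPARN and 8.24 to 828 CPM in control cells, and their part was not tested. The interaction of USB1 KO and shPARN for miR-152-3p was 1.01 (SE 0.32, 95% interval 0.33 to 1.69), with an unadjusted edgeR p of 0.00687 and an adjusted p of 0.129, and 0.98 without control libraries 1 and 2 (edgeR adjusted p = 0.609). No member passed the interaction test, where 1.82% of all miRNAs did (DESeq2 also called 0 members, and 1 had an unadjusted p under 0.05, against 18% of all miRNAs). All comparisons with control cells share the same 3 control libraries, in which miR-152-3p was highest.

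Between USB1 KO cells with shPARN and USB1 KO cells, log2 changes of the members were -0.20 to 0.29 (edgeR adjusted p of 0.371 to 0.925), while 14.8% of all miRNAs were called. Between USB1 KO cells with shPARN and control cells with shPARN they were -0.08 to 0.29 (edgeR adjusted p of 0.341 to 0.983), while 9.19% of all miRNAs were called. In both, 0 members were called by DESeq2 and 0 had an unadjusted p under 0.05, against 27% and 27.2% of all miRNAs. Against USB1 KO cells 0 members did not overlap (29.4% of all miRNAs). Against control cells with shPARN 1 did not overlap (30.5% of all miRNAs), miR-148a-3p, at 315533, 309653 and 312667 CPM in USB1 KO cells with shPARN and 208458, 299683 and 309439 CPM in control cells with shPARN.

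**Figure D3:**
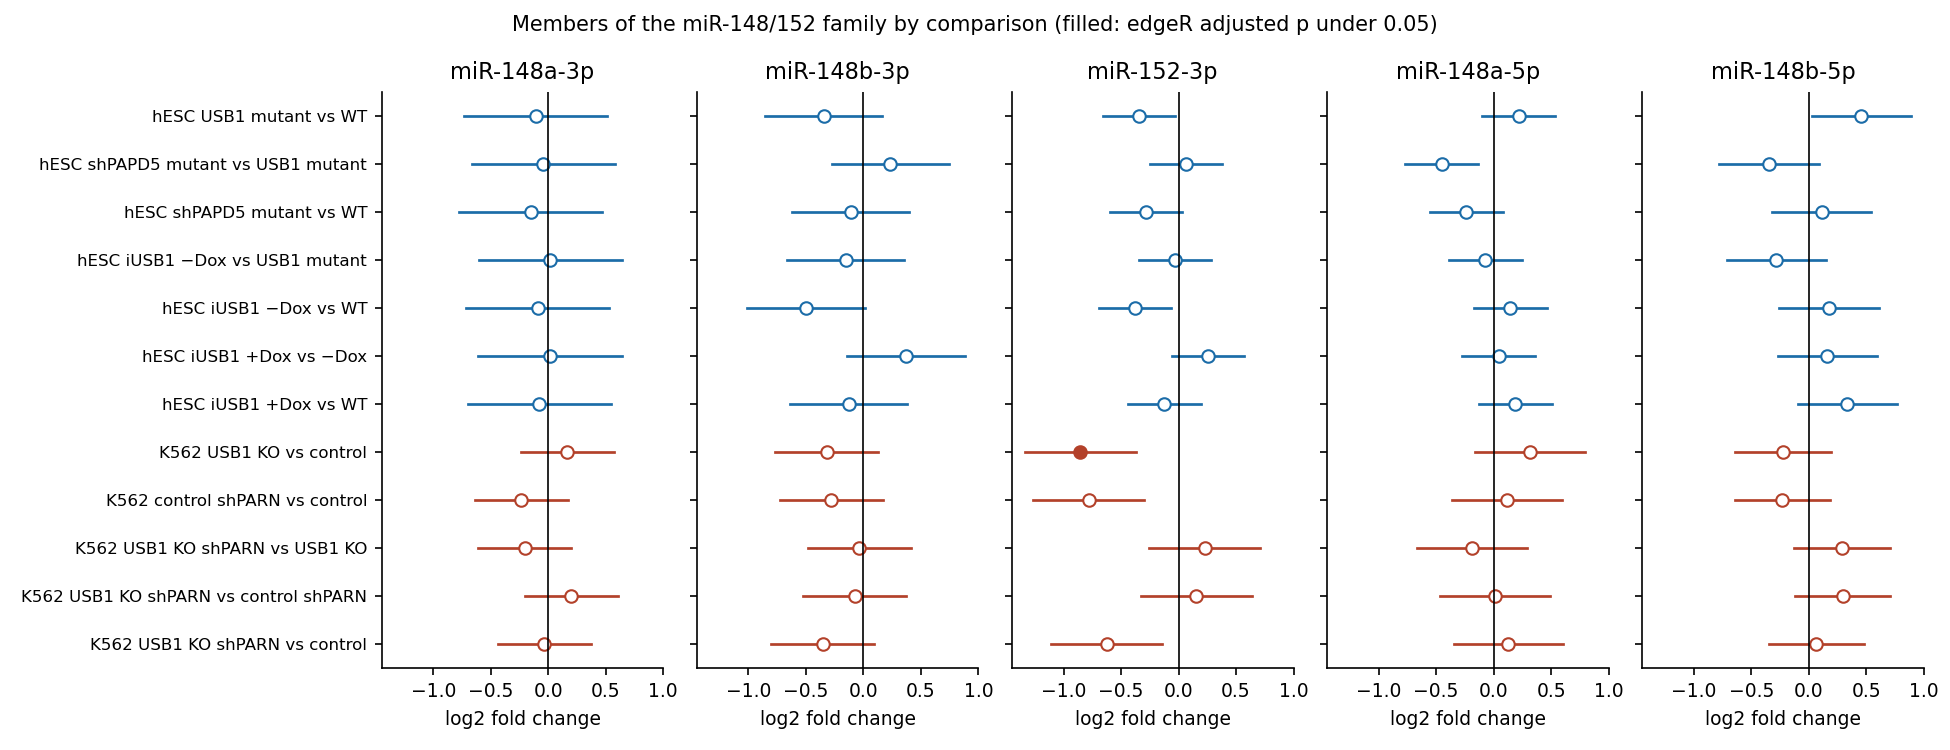
Log2 fold changes of the 5 members with 95% intervals in the 7 hESC (blue) and 5 K562 (red) comparisons, first-named group over second, from the edgeR fit of each line. The filled point is the only call, miR-152-3p in USB1 KO against control cells, and most intervals include 0.

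The effect of USB1 loss was compared between lines in a fit of USB1 mutant, WT, USB1 KO and K562 control cells. The difference of effects, hESC minus K562, was -0.36 to 0.59 over the members, with 0 called by edgeR (adjusted p of 0.499 to 0.973) or DESeq2, 0 at an unadjusted p under 0.05 (12.7% of all miRNAs), and 2.76% of all miRNAs called. For miR-152-3p it was 0.42 (SE 0.27, 95% interval -0.15 to 0.99, edgeR adjusted p = 0.631), and 0.54 without control libraries 1 and 2 (edgeR adjusted p = 0.882), so a difference in size between the lines was not shown.

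The levels of WT hESCs and K562 control cells were compared in the same fit, which rests on 905 miRNAs that were listed in all 4 tables. Those held as little as 63.5% of a library's counts, and 4 of the 8 pluripotency miRNAs were among them. The outcome depended on the scaling. With TMM, 4 of 5 members were called, where 62.7% of all miRNAs were (66% at an unadjusted p under 0.05, and 4 members). In WT hESCs miR-148a-3p was higher by 0.96 (SE 0.31, edgeR adjusted p = 0.0151), miR-148b-3p by 1.07 (SE 0.31, adjusted p = 0.00825) and miR-152-3p by 0.56 (SE 0.19, adjusted p = 0.0176), but with library totals all 3 were lower, at -0.24, -0.12 and -0.62. miR-148b-5p was lower in both scalings, at -1.09 (SE 0.23, edgeR adjusted p = 0.000872) with TMM and -2.28 with totals. miR-148a-5p was at 0.14 with TMM and -1.05 with totals, and was not called with TMM (adjusted p = 0.534). Totals shifted the median of all miRNAs by -1.19. Relative to that median the values were close under both: 1.03 with TMM and 1.03 with totals for miR-148a-3p, 1.14 and 1.14 for miR-148b-3p, 0.63 and 0.64 for miR-152-3p, 0.21 and 0.22 for miR-148a-5p, and -1.02 and -1.02 for miR-148b-5p.

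As shares, miR-152-3p took 0.00810, 0.00806 and 0.00807% of WT hESC libraries, against 0.0125, 0.0135 and 0.0114% of K562 control libraries. The call of miR-148a-3p was lost without WT library 2 (edgeR adjusted p = 0.0519), WT library 3 (0.0679) or control library 1 (0.0556), and that of miR-152-3p without WT library 3 (0.0609) or control library 1 (0.0763), 2 (0.0629) or 3 (0.0746). Without both control libraries 1 and 2, miR-148b-5p alone was called, at -1.09 (edgeR adjusted p = 0.0369). The others were then at 0.77 for miR-148a-3p, 0.93 for miR-148b-3p, 0.56 for miR-152-3p and 0.14 for miR-148a-5p (edgeR adjusted p = 0.224, 0.166, 0.256 and 0.796). All 5 members had libraries that did not overlap between the lines after TMM scaling, against 70.8% of all miRNAs.

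The ratio of 3p to 5p counts within a hairpin does not depend on library scaling. For miR-148a it was 605 to 1827 in hESCs, with a median of 1305, and 541 to 1098 in K562, with a median of 752. The 5p arm thus made up 0.0547 to 0.165% of the hairpin's counts in hESCs and 0.0910 to 0.185% in K562. For miR-148b the ratio was 105 to 441 in hESCs (median 302) and 57.5 to 114 in K562 (median 83.6). For miR-152, whose 5p arm had only 3 to 46 counts, it was 49.4 to 352 in hESCs (median 149) and 18.3 to 113 in K562 (median 30.8). The family was more one-sided than most hairpins. Over hairpins with both arms listed in every table of a line, the median imbalance between arms was 7.23-fold for 319 hairpins in hESCs and 6.56-fold for 265 in K562. By this measure miR-148a ranked 11 and miR-148b 27 of 319 in hESCs, and 10 and 39 of 265 in K562. miR-152 was the least one-sided of the 3, at rank 38 of 319 in hESCs and 68 of 265 in K562, with few 5p counts.

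Arm ratios were compared by a two-sided exact permutation test of their log2 values in 13 comparisons for each hairpin, with p adjusted over the 13. The smallest p that 3 libraries against 3 allow is 0.1, so no comparison could pass at 0.05. In USB1 mutant hESCs the miR-148b ratio was 105, 342 and 299, below all 3 of WT at 382, 390 and 441. The difference of log2 means was -0.87 (exact p = 0.1, adjusted p = 0.26), -0.34 without mutant library 1, and 18.2% of the 170 hairpins with at least 10 counts per arm also did not overlap. The ratio of miR-148b was likewise below WT in every -Dox library, at 285, 296 and 192 (exact p = 0.1, adjusted p = 0.26, 14.7% of 170 hairpins not overlapping), and in every +Dox library, at 315, 302 and 266 (exact p = 0.1, adjusted p = 0.26, 18.5% of 168). With shPAPD5 it was 300, 366 and 386, which overlapped WT (exact p = 0.2).

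The miR-148a ratio overlapped between USB1 mutant cells, at 605, 1365 and 1539, and WT, at 1170, 1451 and 1827. The difference of log2 means was -0.43 (exact p = 0.5), and -0.0090 without mutant library 1. Library 1 had the lowest miR-148a ratio of its group in all 5 hESC groups. It was 1090 in -Dox, 1181 in +Dox and 1268 in shPAPD5 cells. In K562 the miR-148a ratio was 803, 731 and 740 in USB1 KO cells, against 759, 805 and 960 in control cells (-0.14, exact p = 0.2, and -0.34 without control libraries 1 and 2). The miR-148b ratio was 99.5, 95.8 and 57.5 in USB1 KO cells, against 93.5, 80.8 and 99.98 in control cells (-0.15, exact p = 0.8, and -0.29 without control libraries 1 and 2). Among K562 comparisons the miR-148b ratio did not overlap in USB1 KO cells with shPARN, at 64.1, 67.3 and 73.2, against control cells (-0.42, exact p = 0.1, adjusted p = 0.26), where 20.9% of 129 hairpins did not overlap. The difference was -0.55 without control libraries 1 and 2. Both ratios were higher in all 3 WT hESC than in all 3 K562 control libraries, by 0.80 for miR-148a and 2.15 for miR-148b on the log2 scale (exact p = 0.1 each, adjusted p = 0.867 and 0.26), where 55.6% of 108 hairpins did not overlap. These differences were 0.60 and 2.01 without control libraries 1 and 2.

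**Figure D4:**
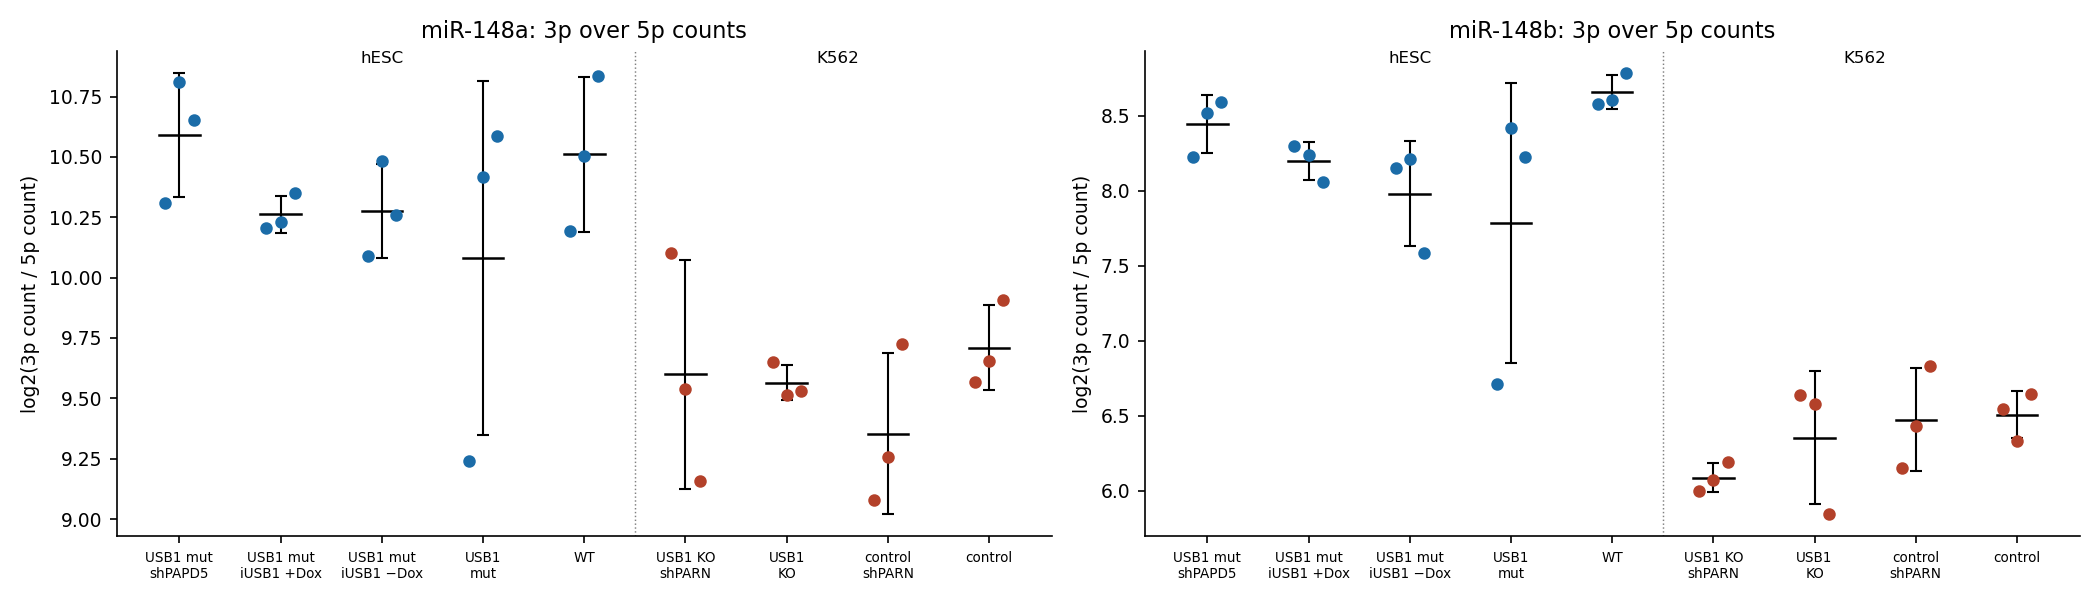
Log2 of 3p over 5p counts of the miR-148a and miR-148b hairpins in each library, with mean and SD of 3 libraries per group (y axes do not start at 0). Ratios were lower in K562 than in WT hESCs for both hairpins, and the 3 WT libraries were above those of USB1 mutant, -Dox and +Dox cells for miR-148b.

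Likeness across libraries was also measured. Pearson correlations of log2 CPM are given as descriptions. Libraries of a group share their cells, and the TMM scaling is common to all miRNAs. Over the 15 hESC libraries and 420 miRNAs whose log2 CPM averaged 3 or more, miR-148a-3p was most like miR-25-3p (r = 0.93), miR-106b-3p (0.92) and miR-4664-3p (0.89), of which the first pair comes from the miR-106b/25 cluster. Without the 2 libraries farthest from the median, USB1 mutant library 1 and shPAPD5 library 1, these were 0.80, 0.75 and 0.66. miR-148b-3p was the 31st most like it (0.70, and 0.46 without both) and miR-152-3p the 67th (0.53, and 0.15). miR-148b-3p and miR-152-3p were closer to each other, at 0.83 with Spearman's rho of 0.78. miR-148b-3p was most like miR-378g (0.93), miR-185-3p (0.92) and miR-1843 (0.90), and miR-152-3p most like miR-1304-3p (0.91), miR-26a-5p (0.89) and miR-26b-5p (0.88).

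Over the 12 K562 libraries and 421 miRNAs, miR-148a-3p was most like miR-532-5p (0.76), miR-629-5p (0.75) and miR-10399-3p (0.75), which were 0.51, 0.41 and 0.55 without USB1 KO library 1 and control shPARN library 1. miR-148b-3p was most like miR-423-3p (0.93), miR-26a-5p (0.90) and miR-15b-5p (0.89), and miR-152-3p most like miR-30e-3p (0.85), miR-3934-5p (0.79) and miR-1304-3p (0.69). The correlation of miR-152-3p with miR-148a-3p was 0.23 and with miR-148b-3p 0.36.

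Other miRNAs known to target DNA methyltransferases were counted beside the family. None of the 7 tested of 8 listed passed in any of the 7 hESC comparisons, and none of 8 in USB1 KO or control shPARN against control cells. In USB1 KO cells with shPARN, 1 of 8 was called against USB1 KO cells, 1 of 8 against control cells with shPARN and 2 of 8 against control cells, all lower, in comparisons that called 14.8%, 9.19% and 14.1% of all miRNAs. These were miR-342-3p and miR-185-5p, named after their values were seen and both reported to target DNMT1. miR-342-3p fell by 0.90 relative to USB1 KO cells (SE 0.21, edgeR adjusted p = 0.0172), at 122 ± 14.9 CPM in USB1 KO cells with shPARN and 227 ± 7.14 CPM in USB1 KO cells (SD, n = 3). It also fell by 0.77 relative to control cells with shPARN (edgeR adjusted p = 0.0334) and by 0.74 relative to control cells (edgeR adjusted p = 0.0315), where miR-185-5p fell by 0.56 (SE 0.17, edgeR adjusted p = 0.0417). Members that were not called lay in both directions, such as miR-143-3p at 1.37 and miR-29b-3p at -0.58 against USB1 KO cells (edgeR adjusted p = 0.530 and 0.0743). The median log2 change of the list in USB1 KO against control cells was 0.23, against -0.02 for all miRNAs and -0.22 for the 5 members. Of 5 tested of 7 listed miRNAs typical of endoderm and liver, where miR-148a is also abundant, 0 passed in any hESC comparison or in USB1 KO against control cells. In USB1 KO cells with shPARN relative to control cells with shPARN, miR-192-5p rose by 0.66 (edgeR adjusted p = 0.0383) and miR-194-5p by 0.93 (edgeR adjusted p = 0.0330), both abundant in liver and gut. In control cells with shPARN against control cells, library totals called miR-192-5p lower, at -0.83 (edgeR adjusted p = 0.0306). They put the median of all miRNAs there at -0.29. With TMM the only 1 called in that comparison was miR-21-5p, described above. It also rose by 1.07 in USB1 KO cells with shPARN relative to USB1 KO cells (edgeR adjusted p = 0.00595) and by 0.91 relative to control cells (edgeR adjusted p = 0.0114). Between WT hESCs and K562 control cells, where 62.7% of all miRNAs were called with TMM, 1 of 8 of the first list was higher and 5 were lower, and 4 of 6 of the second list were lower and 0 higher. With library totals, which called 72.7% of all miRNAs, 7 of 8 and 5 of 6 were lower and 0 higher. The effect of USB1 loss differed between the lines for 1 of 8 of the first list, miR-126-3p, by 1.12 (hESC minus K562, edgeR adjusted p = 0.0192). Without control libraries 1 and 2, which leaves a lone control library, only sizes are given for these miRNAs. Against control cells, the log2 change of miR-21-5p was then 1.204 in control cells with shPARN. In USB1 KO cells with shPARN it was 0.79 for miR-21-5p, -0.88 for miR-342-3p and -0.62 for miR-185-5p. The difference between lines was 1.31 for miR-126-3p. Between WT hESCs and K562 control cells, 4 of 8 and 2 of 6 were then lower and 0 higher, where 40% of all miRNAs were called.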

How the data were processed

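Small RNA reads of 27 libraries were processed by the authors, who trimmed them with cutadapt 2.5, aligned them to miRBase version 22 with Bowtie2 2.2.9 without seed mismatches and counted them with SAMtools 1.3.1. The deposited tables hold raw counts per mature miRNA, 1 table per group, and list only miRNAs counted at least 1 time in their first column. All columns were used (0 left out). The K562 control columns are named by their table alone, so those libraries carry a number only as a name. 16 adaptor entries (0.00478 to 0.206% of counts) were removed. The members and lists were chosen with earlier results of these data known.

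Each line was fitted on all its groups with edgeR 4.0.16 (R 4.3.3, limma 3.58.1), using TMM scaling, filterByExpr (minimum count 10, minimum total 15) and the robust quasi-likelihood test, with Benjamini-Hochberg adjustment over all miRNAs tested and a threshold of 0.05. The test covered 998 of 1251 miRNAs listed for every hESC group, and 881 of 1080 for K562. WT, USB1 mutant, USB1 KO and K562 control cells were also fitted together (905 of 1068). This gave 15 comparisons. The fits were tested on simulated data. Arm ratios are log2 of 3p over 5p counts with no pseudocount, compared by an exact permutation test of 3 against 3 libraries, whose smallest p is 0.1 (scipy 1.17.1, pandas 2.3.3, Python 3.11.15). Correlations used log2 CPM with a prior count of 2 and miRNAs of a mean of at least 3. Shares have 95% Wilson intervals. Sequences and coordinates are from RefSeq on GRCh38.p14, gene overlaps from GENCODE 44. Figures were drawn with matplotlib 3.10.9.

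The 5 members are named throughout, miR-152-5p for its arm ratio only, the miRNA ranked next to miR-148a-3p, the 3 most correlated miRNAs of each guide, and up to 4 of each list. Alternatives were RLE size factors, library totals, no filter, a CPM of at least 10 in 3 libraries, missing entries as 0, DESeq2 1.42.0, only the groups compared, a replicate block, each library left out, 0.5 added to arm counts, and shares without the most abundant other miRNA.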

Additional observations from a re-analysis of the deposited data

How the results depend on the processing

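In K562 USB1 KO against control cells, 1 of 5 members was called, but 0 with RLE size factors, library totals, no filter, a CPM of at least 10 in 3 libraries, missing entries as 0, or any single library left out (0 to 0). The edgeR adjusted p of miR-152-3p there was 0.0672, 0.0753, 0.0589, 0.0713 and 0.0709 in this order of settings, with log2 changes of -0.85 to -0.78, against 0.0404 with DESeq2 and 0.0105 with only both groups fitted. The count of members called in control shPARN against control cells became 1 with library totals (2.84% of all miRNAs called) or only both groups fitted. In USB1 KO shPARN against control cells it became 2 with library totals (15.7% of all miRNAs called) and 0 to 1 with a library left out. In WT hESCs against K562 control cells it was 2 to 4 with a library left out, where 62.7% of all miRNAs were called with every library. Calls over all miRNAs in other settings are counted below. In every other comparison the count of called members was 0 in all settings run.

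With K562 control libraries 1 and 2 left out together, an alternative chosen after seeing the data, 0 members were called in USB1 KO against control cells and 1 in WT hESCs against K562 control cells, and the log2 change of miR-148a-3p in USB1 KO against control cells was -0.0046.

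Signs turned in these cases, and with library totals also for uncalled members in other comparisons. None rests on a call outside WT hESCs against K562 control cells. There, library totals gave -0.24 for miR-148a-3p, -1.05 for miR-148a-5p, -0.12 for miR-148b-3p and -0.62 for miR-152-3p. With a library left out, miR-148a-3p in USB1 mutant against WT hESCs ranged over -0.38 to 0.21. So did log2 arm ratios of miR-148a in +Dox against -Dox (-0.11 to 0.088), shPAPD5 against WT (-0.078 to 0.24), -Dox against USB1 mutant (-0.22 to 0.45) and USB1 KO shPARN against USB1 KO (-0.22 to 0.26), control shPARN (-0.0061 to 0.47) and control cells (-0.36 to 0.11). For miR-148b they were -0.34 to 0.51 in -Dox against USB1 mutant, -0.29 to 0.10 in USB1 KO against control and -0.22 to 0.13 in control shPARN against control cells. The cause was not tested.

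Without the most abundant other miRNA, the share of the 3 guides was 32.2% in USB1 mutant cells, 35.8% with shPAPD5, 35.9% in +Dox, 35.4% in -Dox and 39.4% in WT hESCs, and 46.1% in USB1 KO, 38.3% in USB1 KO shPARN, 34.3% in control shPARN and 40.2% in control K562 cells.

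Over all miRNAs, though not for miR-148a-3p in hESCs, same-numbered libraries hardly deviated together and were not paired. Median correlations were 0.0269 in hESCs (8 of 30 pairs over 0.1) and 0.0085 in K562 (5 of 18). With a replicate block, in which K562 control libraries were numbered by their columns, 0 members were called in USB1 KO against control cells (miR-152-3p -0.85, edgeR adjusted p = 0.0614). Of the 5 members, depth limits miR-148b-5p most, with 67 counts in its least counted library.

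Over all miRNAs, fitting only the groups compared gave 0 calls against 74 in USB1 mutant against WT, 8 against 43 in -Dox against WT, 50 against 130 in USB1 KO shPARN against USB1 KO, 49 against 81 in USB1 KO shPARN against control shPARN and 27 against 13 in control shPARN against control cells. DESeq2 gave 124, 37, 35 and 49 calls against 81, 13, 16 and 25 in the last pair of these, the interaction and the difference between lines. In control shPARN against control cells there were 25 calls with library totals and 21 with the CPM filter or missing entries as 0. The interaction had 7 with RLE or library totals, 1 with the CPM filter and 10 with the block, and the difference between lines 41 with missing entries as 0 and 14 with the block. -Dox against WT had 28 with library totals and 25 with no filter. Comparisons with 0 calls among hESCs had up to 3 (+Dox against -Dox), 2 (-Dox against USB1 mutant), 8 (shPAPD5 against USB1 mutant) and 21 (shPAPD5 against WT). With library totals the percent of calls that were higher was 25.8 against 39.2 with TMM in USB1 mutant against WT, 32 against 84.6 in control shPARN against control, 28.7 against 61.5 in USB1 KO shPARN against USB1 KO, 33.3 against 60.5 in USB1 KO shPARN against control, 57.1 against 75 in the interaction, 57.1 against 72 in the difference between lines and 24.8 against 51.7 in WT hESCs against K562 control cells. Leaving out 1 library gave 38 to 87 calls against 74 in USB1 mutant against WT, 13 to 37 against 43 in -Dox against WT, 25 to 61 against 82 in +Dox against WT, 0 to 9 against 0 in shPAPD5 against WT, 16 to 34 against 45 in USB1 KO against control, 1 to 25 against 13 in control shPARN against control and 0 to 27 against 16 in the interaction. It gave 38 to 139 against 130, 36 to 92 against 81 and 73 to 112 against 124 in USB1 KO shPARN against USB1 KO, control shPARN and control cells, and 11 to 26 against 25 in the difference between lines. Without control libraries 1 and 2 there were 8 in USB1 KO, 0 in control shPARN and 14 in USB1 KO shPARN against control cells, and 0 in the interaction, 13 in the difference between lines and 399 against 567 in WT hESCs against K562 control cells.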
